A study of Mus musculus with 6 samples.

Results

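The 8 mouse SMAD genes (Smad6, Smad7, Smad1, Smad5, Smad9, Smad2, Smad3 and Smad4) were examined for binding of an induced GLI3 repressor. Peaks were taken by distance: every ChIP-seq peak with its summit within 200 kb of the inhibitory genes Smad6 and Smad7, or within 50 kb of the other members. This gave 11 of the 3640 peaks in the list from doxycycline-treated cells and 0 of the 4379 peaks in the list from untreated cells. Smad6 and Smad7 were chosen by the fold enrichment and −log10 q of their doxycycline peaks, known from these lists, so the values below describe the genes and carry no test.

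SMAD proteins carry signals of the TGF-beta superfamily from membrane receptors to the nucleus. Smad1, Smad5 and Smad9 are phosphorylated by BMP receptors, Smad2 and Smad3 by TGF-beta and activin receptors, and Smad4 is the common partner that joins either kind. Smad6 and Smad7 cannot be activated in this way and restrain the pathway by occupying receptors, competing for partners and recruiting ubiquitin ligases. Both are themselves transcribed in response to the signals they restrain, and BMP signalling is needed for the specification of heart progenitors. GLI3R, the truncated repressor form of GLI3, keeps Hedgehog target genes down in the absence of ligand.

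The cells were cardiac progenitors differentiated from 1 engineered mouse embryonic stem cell line (A2Lox.cre strain, GLI3R-FTA line) and harvested on day 6. The doxycycline group received 500 ng/ml for 24 h from day 5 to induce tagged GLI3R, and the untreated group, of the same line with the same transgene, received none. Each group had 2 pull-downs with streptavidin beads, which bind biotin on the Avi tag, and 1 input of 10%. The sample titles name GLI3R while the treatment text names GLI1, and the titles were followed. Each group was represented by 1 peak list, on the mm10 build, and the peaks carry no error between replicates. Peak lists hold no expression values, and the labelled cell type could not be checked against markers. Ptch1, the Hedgehog receptor gene that GLI factors bind, had 6 summits within 50 kb with doxycycline, the strongest at 17.7-fold, and 0 without.

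Smad6 (gene ID 17130, chromosome 9, 63953076 to 64022085, read from the high end to the low end) had the most peaks of the family. With doxycycline 8 summits lay within 200 kb and 5 within 50 kb of the gene, against 0 and 0 in untreated cells, where the nearest summit was 569 kb away. The strongest of those nearest to Smad6 (63932728 to 63933187) lay 20.1 kb beyond the gene's far end. It was enriched 12.8-fold, with a −log10 q of 17.9, and ranked 112 of 3640 by that value. The pileup, which is the number of fragments over the summit worked back from the authors' fold and p, was 17 (exact Poisson 95% interval 9.90 to 27.2). The peak caller's local expectation was 0.409 fragments. Fold is taken here and below as (pileup + 1) / (expectation + 1), which is smaller than pileup over expectation (41.5 for this peak).

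A second peak past the far end (63950520 to 63950681) lay 2.49 kb from Smad6, at 7.31-fold with 9 fragments (4.12 to 17.1). Inside the gene, 42.6 kb from its start-side end, a peak (63979347 to 63979638) reached 9.50-fold with 12 fragments (6.20 to 21.0). On the start side, outside the gene, peaks stood 23.2 kb away (64045144 to 64045334) at 8.47-fold with 11 fragments (5.49 to 19.7) and 63.1 kb away (64085023 to 64085317) at 9.35-fold with 13 fragments (6.92 to 22.2). Peaks therefore stood on both sides of Smad6 as well as within it. The last of these was nearer to Lctl, a lactase-like gene 31.9 kb away, than to Smad6, and its summit lay inside the long noncoding RNA gene Scarletltr.

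The weakest peak nearest to Smad6 was at its promoter. It spanned 64021915 to 64022102, was enriched 5.10-fold with a −log10 q of 3.07 and had 6 fragments (2.20 to 13.1). Its summit fell 20 bases after the RefSeq start site, and the peak covered 93 bases of the 300-base RefSeq promoter window, which runs from 250 bases before the start. The window is shown because it is the only one among the SMAD promoters searched that holds a summit. The promoter of Smad9 is shown beside it because a summit lay 59 bases outside its window; it was added after the values were seen. Both are GRCm38.p6 sequence from RefSeq, read 5′ to 3′ along the gene, and capitals mark motifs found by script.
Smad6 promoter, chr9:64022010-64022309, minus strand: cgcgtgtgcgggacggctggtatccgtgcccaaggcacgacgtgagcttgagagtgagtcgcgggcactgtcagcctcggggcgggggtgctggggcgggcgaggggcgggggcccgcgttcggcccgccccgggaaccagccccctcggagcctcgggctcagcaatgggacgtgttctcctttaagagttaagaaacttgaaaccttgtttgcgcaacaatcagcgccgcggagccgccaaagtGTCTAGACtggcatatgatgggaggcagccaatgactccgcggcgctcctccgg
Smad9 promoter, chr3:54755332-54755631, plus strand: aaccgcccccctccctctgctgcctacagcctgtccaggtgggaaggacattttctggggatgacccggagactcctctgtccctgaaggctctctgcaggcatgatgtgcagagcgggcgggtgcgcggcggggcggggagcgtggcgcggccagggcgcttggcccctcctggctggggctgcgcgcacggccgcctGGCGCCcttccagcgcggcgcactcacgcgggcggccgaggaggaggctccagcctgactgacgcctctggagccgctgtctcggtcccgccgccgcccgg

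The capitals in the Smad6 promoter are the palindromic SMAD motif GTCTAGAC, at bases 247 to 254 of the window, across the start site. This motif was present on either strand in 70 of the 32851 RefSeq promoter windows of the same length (0.213%). Those in the Smad9 promoter are the GC-rich SMAD motif GGCGCC, at bases 200 to 205, which 11.9% of all windows hold. It lies outside the Smad9 peak, which covers only 1 base of that window. GGCGCC also occurred in the Smad5 promoter, in 2 overlapping windows that share 1 site. The GLI motif GACCACCCA was searched on both strands, exact (0.253% of all windows) and with 1 mismatch (6.74%). Neither form was found in any of the 7 windows of the 5 SMAD genes searched (Smad1, Smad3, Smad5, Smad6 and Smad9), which says only that these letters are not in those windows. None of the motifs found overlapped another.

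Smad3, the TGF-beta and activin effector, neighbours Smad6 and is read in the same direction (gene ID 17127, chromosome 9, 63646766 to 63757994). The 2 genes are 195 kb apart, with 4 doxycycline summits between them. Smad3 had 3 summits within 50 kb with doxycycline and 0 without. The highest fold of the whole family was here, 13.9 kb before the start side of Smad3 (63771835 to 63772056), at 12.9-fold with a −log10 q of 18.5, rank 107 and 18 fragments (10.7 to 28.4). The other 2 were weaker. One at 35.9 kb (63793740 to 63793990) was enriched 4.37-fold with 5 fragments (1.62 to 11.7), the smallest pileup in the list, and one inside the gene (63712873 to 63713137) was enriched 5.85-fold with 7 fragments (2.81 to 14.4). The peaks at 13.9 and 35.9 kb also fell within 200 kb of Smad6, at 181 and 159 kb, and were counted once.

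Together Smad3 and Smad6 carried 9 doxycycline summits over 372 kb, with 0 untreated summits in that stretch. Neighbouring summits were 17.6 to 139 kb apart. The next doxycycline summits stood 621 kb below and 1023 kb above, and the next untreated ones 539 kb below and 506 kb above. Over the chromosomes there were 1.43 doxycycline and 1.72 untreated peaks per Mb, so these gaps are not read as boundaries. The length of the stretch was set by its own 9 summits, and the genes were chosen from this list. The share that follows is therefore a description and no measure of rarity. When a stretch of the same length was started at each of the 3640 doxycycline summits, 21 starts (0.577%) held at least 9. Joined where they overlap, these were 4 places. They were the Smad3 and Smad6 stretch, a stretch of 10 whose strongest peak lay 56.4 kb from Hes1, one of 9 at Med16, and the start of the chromosome 9 sequence with 25. Of all 3640 doxycycline peaks, 3567 overlapped no untreated peak. At Smad3 and Smad6 the median local expectation was 0.373 fragments and 0 peaks overlapped untreated ones. The stretch near Hes1 had 0.368 fragments and 0 overlapping peaks, the one at Med16 0.388 and 1, and the start of chromosome 9 6.14 and 23.

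**Figure D1:**
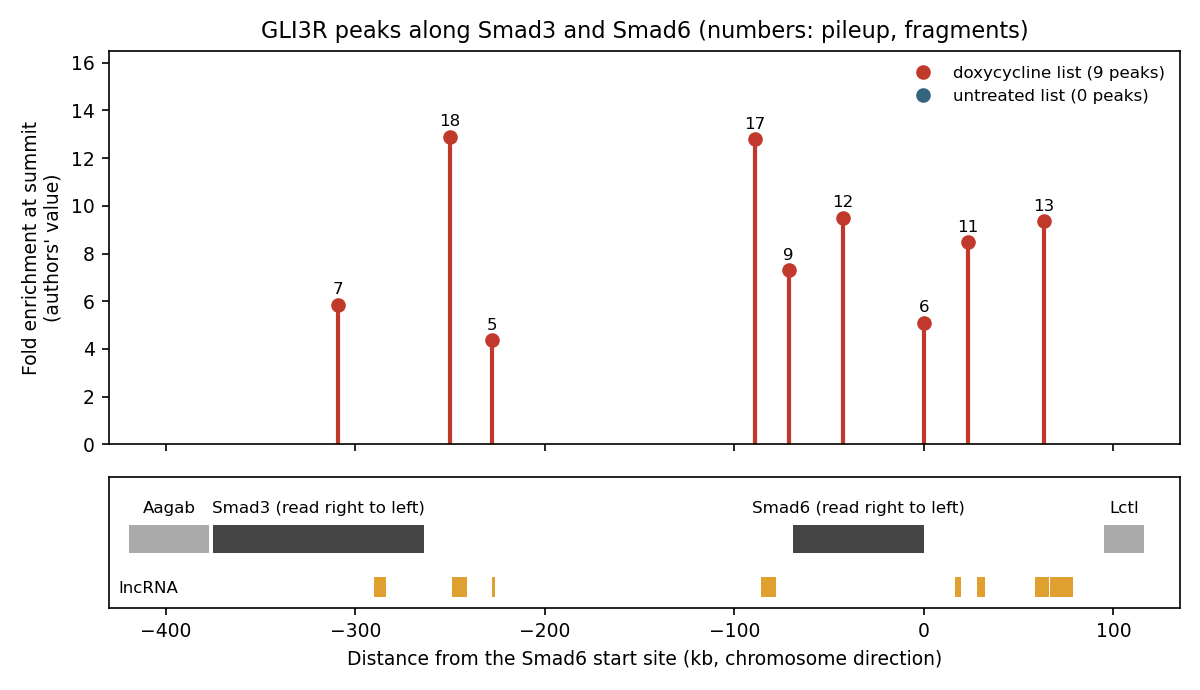
Doxycycline peaks along Smad3 and Smad6, with fold enrichment at the summit (vertical axis, authors' value) against distance in kb from the Smad6 start site; numbers above the points are pileups in fragments, and the lower panel shows protein-coding genes (grey) and lncRNA genes (yellow). The 9 doxycycline peaks run from 4.37-fold to 12.9-fold, and the untreated list has 0 peaks here.

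Smad7, the inhibitory SMAD that acts on both BMP and TGF-beta signals, differed from Smad6 in having a single peak. Smad7 (gene ID 17131, chromosome 18, 75367365 to 75395935) had 1 summit within 200 kb with doxycycline and 0 without. The peak (75367706 to 75368254) lay inside the gene, its summit 0.448 kb from the low end. It was enriched 11.7-fold with a −log10 q of 15.4, rank 134 and 15 fragments (8.40 to 24.7). At 549 bp it was the widest of the 11, and the authors' file lists a second summit in it, 387 bp away at 7.31-fold with 9 fragments. Outside the window the next summit was 300 kb away with doxycycline and 262 kb away without.

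Of the BMP-regulated SMADs, Smad9 had a peak and Smad1 and Smad5 did not. At Smad9 (gene ID 55994, chromosome 3, 54755455 to 54801662) the doxycycline peak (54755176 to 54755332) had its summit 0.182 kb before the gene and 309 bases before the RefSeq start site shown above. It was enriched 8.34-fold with a −log10 q of 8.56 and 11 fragments (5.49 to 19.7). The nearest untreated summit was 60.1 kb from Smad9, at 3.93-fold with 4 fragments. Smad1 (gene ID 17125, chromosome 8, 79338395 to 79399428) had its nearest doxycycline summit at 86.0 kb, with 5.07-fold and 6 fragments, and its nearest untreated one at 106 kb. For Smad5 (gene ID 17129, chromosome 13, 56703010 to 56742378) the nearest summit was at 530 kb with doxycycline and at 114 kb without.

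Smad2 and Smad4 had no doxycycline summit nearby. Smad2, the partner of Smad3 in TGF-beta and activin signalling (gene ID 17126, chromosome 18, 76241090 to 76311748), had its nearest summit at 339 kb with doxycycline and at 70.7 kb without. The common partner Smad4 (gene ID 17128, chromosome 18, 73634790 to 73703791) had it at 302 kb with doxycycline and at 81.0 kb without. All untreated summits within 200 kb of a SMAD gene, 7 in number, had 4 or 5 fragments and were at 3.93-fold or 4.72-fold. They lay near Smad1, Smad5, Smad9, Smad2 and Smad4. The 3 genes with none were Smad6, Smad7 and Smad3. At the edges of the windows, the farthest doxycycline summit inside 200 kb was the 12.9-fold one at 181 kb from Smad6, and the nearest outside was the 5.85-fold one at 240 kb, which entered through Smad3. For the windows of 50 kb these were the 4.37-fold one at 35.9 kb from Smad3 and the 5.07-fold one at 86.0 kb from Smad1.

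**Figure D2:**
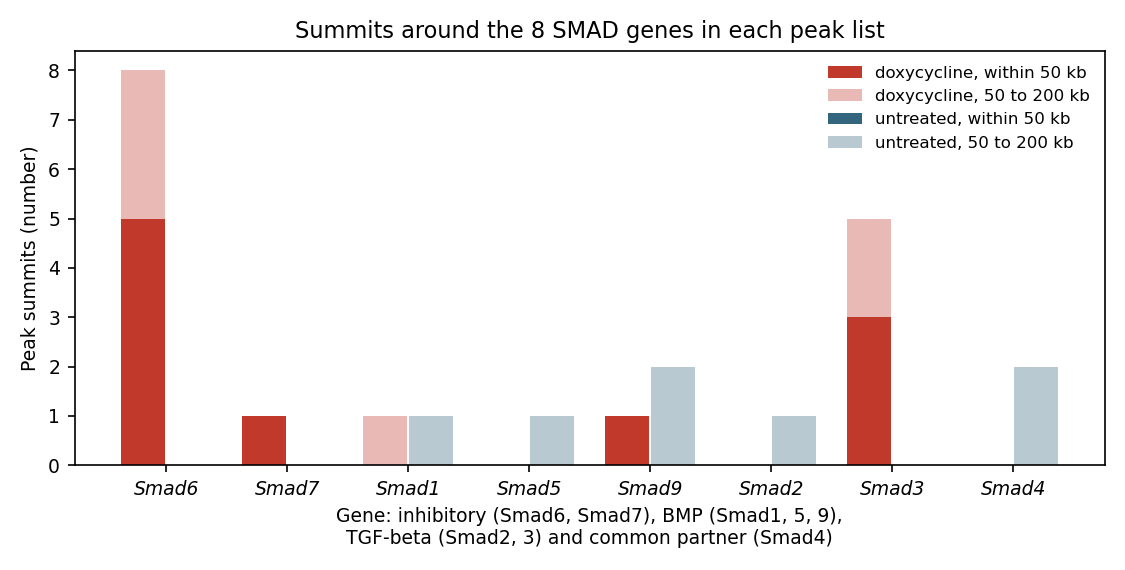
Number of summits around each SMAD gene, with doxycycline bars left of untreated bars, dark for summits within 50 kb and pale for 50 to 200 kb; a peak between Smad3 and Smad6 can count for both. Doxycycline summits within 50 kb are at Smad6 (5), Smad3 (3), Smad7 (1) and Smad9 (1), and the untreated list has 0 within 50 kb of any of the 8.

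With the same distance of 50 kb for all, 4 of the 8 SMAD genes met a doxycycline summit and 0 met an untreated one. Over all 21631 protein-coding genes the shares were 20.3% with doxycycline and 19.1% without, and over the 5685 genes whose lengths lie between the shortest and the longest SMAD gene (28.6 and 111 kb) they were 22.3% with doxycycline and 22.4% without. A doxycycline summit without an untreated one was found at 15.3% of all genes. Within 200 kb, 5 SMAD genes met a doxycycline summit and 5 an untreated one, beside 49.4% and 48.1% of all genes. At least 5 doxycycline summits within 50 kb, the number at Smad6, were found at 9 genes (0.0416%), and at least 3, the number at Smad3, at 175 (0.809%). Within 200 kb the 8 summits of Smad6 were matched or passed at 15 genes (0.0693%) with doxycycline and 2 (0.00925%) without. A summit of at least 10-fold within 50 kb was found at Smad6, Smad7 and Smad3 and at 2.02% of all genes. Since these lists chose the members, nothing is read from these shares.

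The 11 peaks ranged widely in strength. Their median fold was 8.47 and their median pileup 11 fragments, beside 5.50 and 7 over the doxycycline list. Of the 11, 3 were enriched at least 10-fold (6.43% of the list), 7 had at least 11 fragments (12.1%) and 6 were at least 251 bp wide (10.4%). The cut-offs of 11 fragments and 251 bp are the medians of these same peaks, so most of the 11 pass them by construction. By position 3 were within 1 kb of an end of a protein-coding gene, at Smad6, Smad7 and Smad9 (8.65% of the list), and 4 were inside such a gene (44.0%). Inside or within 1 kb of a lncRNA gene there were 4 (13.2%). Beside the peak in Scarletltr these were the 2 on the start side of Smad3, 0.812 kb from Gm35941 and 0.209 kb from Gm39359, and the Smad7 peak, 0.725 kb from Gm20544.

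**Figure D3:**
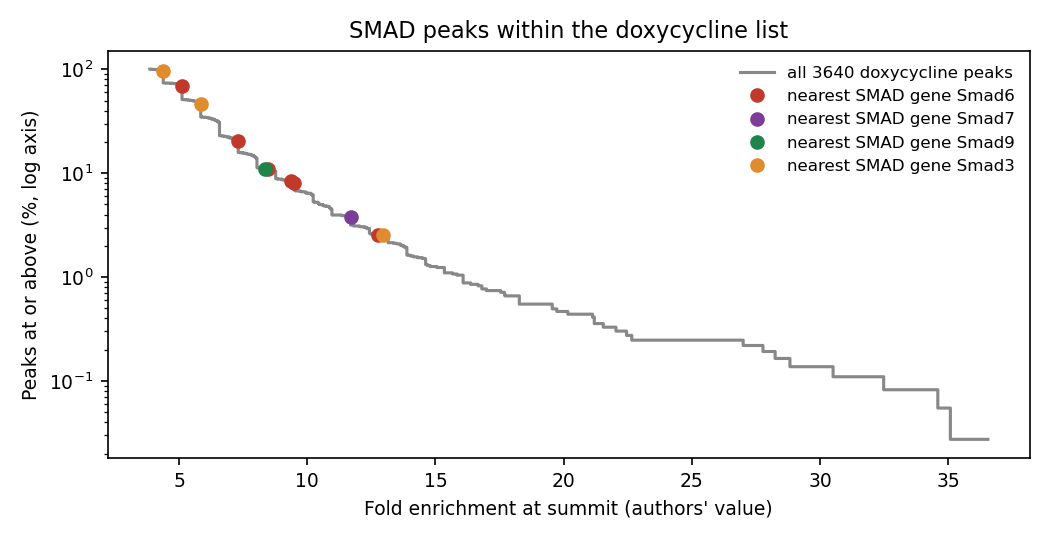
Share of all 3640 doxycycline peaks (vertical axis, %, log scale) at or above each fold enrichment (horizontal axis), with the 11 SMAD peaks coloured by their nearest SMAD gene. The peaks at Smad6, Smad3 and Smad7 with 11.7-fold to 12.9-fold lie in the upper part of the list, and those with 4.37-fold and 5.10-fold below its median of 5.50-fold.

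Counting error was large at these depths. The intervals of the strongest peaks at Smad3 (18 fragments), Smad6 (17) and Smad7 (15) overlapped widely, so their order is not resolved. The 5-fragment peak had an interval of 1.62 to 11.7 and a local expectation of 0.373 fragments; peaks are in the list because their pileup passed a Poisson test against that expectation. The most frequent local expectation was 0.368 fragments with doxycycline and 0.272 without, a ratio of 1.35. Divided by that ratio, the pileups of the 11 peaks came to between 3.70 and 13.3 fragments, and 10 of the 11 were at or above 4, the smallest pileup in the untreated list. Any doxycycline peak of at least 6 fragments meets this, as 2689 of all 3640 did, so nothing is read from it. The intervals cover counting error only, and fragments copied in PCR are not independent. A site missing from the untreated list is one that did not meet the authors' threshold, and its signal there is not known.

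**Figure D4:**
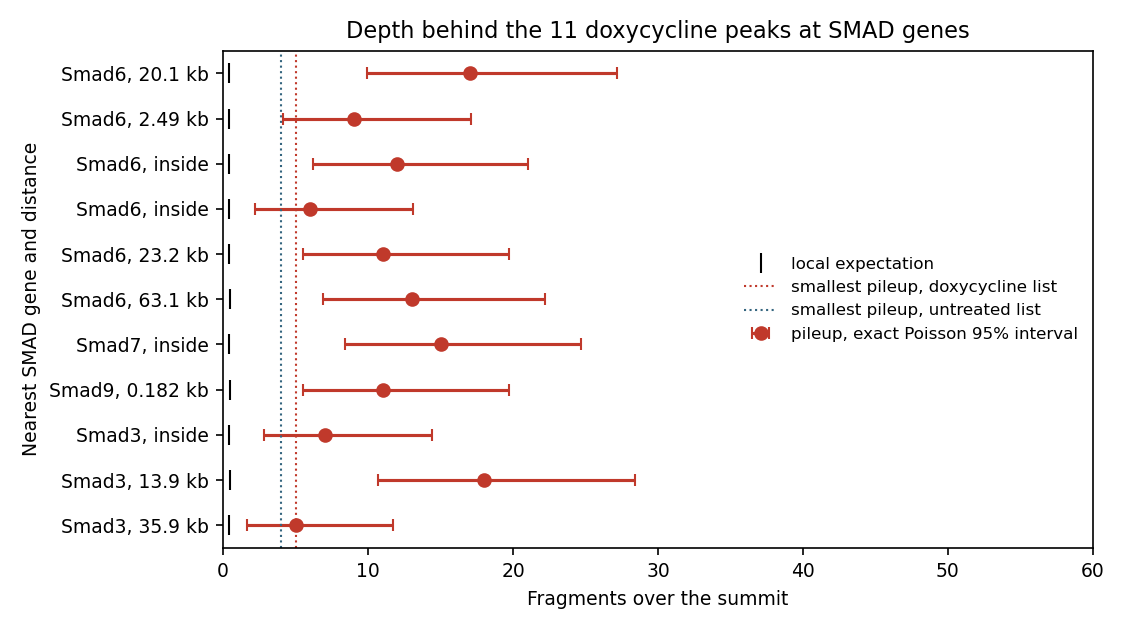
Fragments over the summit (horizontal axis) of the 11 doxycycline peaks, named by the nearest SMAD gene and distance, with exact Poisson 95% intervals (bars), the local expectation (black ticks) and the smallest pileup of each list (dotted lines at 5 for doxycycline and 4 for untreated). The intervals of the peaks with 15, 17 and 18 fragments overlap. Since the peaks were called against the local expectation, their distance from it is no support.

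Genes that act around the SMADs were described with 5 lists of 75 genes. Of the 75, 32 (42.7%) lay within 50 kb of a doxycycline summit and 19 (25.3%) of an untreated one, beside 20.3% and 19.1% of all protein-coding genes. Near both kinds were 9 of the 75, beside 1088 of all 21631 genes (5.03%). The median fold of the strongest doxycycline peak was 6.21 at these 32 genes and 5.85 over all genes with one. The counts are given below by role, with no test.

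Extracellular antagonists, which bind BMP, activin or Nodal ligands or their receptors outside the cell, had the most uneven counts, with 8 of 11 near a doxycycline summit and 1 of 11 near an untreated one. Nog, which encodes noggin, had a peak 0.423 kb away, Grem1 one 25.8 kb away and Dand5, a Nodal antagonist, one 44.7 kb away, each at 6.58-fold with 8 fragments. Chrd, Fst, Lefty1 and Lefty2 had peaks of 4.39-fold to 5.80-fold, and the 2 Lefty genes share 1 peak. Bmper was the gene with an untreated summit (4.72-fold, inside the gene).

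Among partners and regulators of SMADs, 9 of 20 lay near a doxycycline summit and 5 of 20 near one of the untreated list. Skil and Ski, which encode corepressors that bind SMADs, had peaks at 11.0-fold (0.0330 kb away) and 9.50-fold (inside the gene). Ldlrad4, a membrane inhibitor of TGF-beta signalling, had one inside the gene at 8.77-fold, and the corepressor gene Tgif2 one inside the gene at 6.58-fold. Skil was the gene with both, its strongest untreated peak 8.41 kb away at 7.86-fold. Smurf1, whose ubiquitin ligase partners Smad6 and Smad7, had an untreated summit only, 43.6 kb away at 8.51-fold, and Smurf2 a doxycycline summit only, 19.6 kb away at 5.12-fold.

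Target genes of SMADs were near a doxycycline summit in 8 of 15 cases and near an untreated one in 6. The strongest were 29.2 kb from Id1, at 13.8-fold, and 0.905 kb from Id2, at 12.5-fold, which encode inhibitors of helix-loop-helix factors and are transcribed in response to BMP. Snai1, a regulator of epithelial to mesenchymal transition, had a peak 44.3 kb away at 10.2-fold, and Id3 one inside the gene at 9.54-fold. Id3, Id4, Snai1 and Snai2 also had untreated summits, at 6.29-fold, 5.50-fold, 3.92-fold and 4.72-fold. At Snai2 the strongest peaks of the 2 lists overlapped, with summits 0.141 kb apart, at 5.85-fold with doxycycline. No SMAD peak overlapped an untreated peak, and neither did 3567 of all 3640 doxycycline peaks.

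Ligands and receptors did not differ in number between the lists. Of 15 ligand genes 5 met a doxycycline summit and 5 an untreated one, and Bmp6, Bmp7, Gdf6 and Tgfb1 had both. Their strongest doxycycline peaks were at 5.85-fold, 6.95-fold, 5.12-fold and 5.85-fold, and their strongest untreated ones at 3.93-fold, 4.72-fold, 4.72-fold and 3.93-fold. These are different sites, since the strongest peaks overlapped at none of these genes and their summits lay 4.22 to 104 kb apart. The smallest pileup also differs between the lists (5 fragments with doxycycline, 4 without), so the folds are not compared. Tgfb2 had a doxycycline peak only, 5.04 kb away at 5.85-fold with 7 fragments. Bmp2 had an untreated peak only, 10.4 kb away at 6.29-fold with 7 fragments. Of 14 receptor genes 2 had a doxycycline summit, the co-receptor gene Eng (10.6-fold, 26.1 kb away) and the Nodal receptor gene Acvr1c (5.85-fold, inside the gene). In 2 others, Tgfbr2 and Tgfbr3, only untreated summits were found, the strongest at 6.29-fold and 4.64-fold, both inside the gene.

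**Figure D5:**
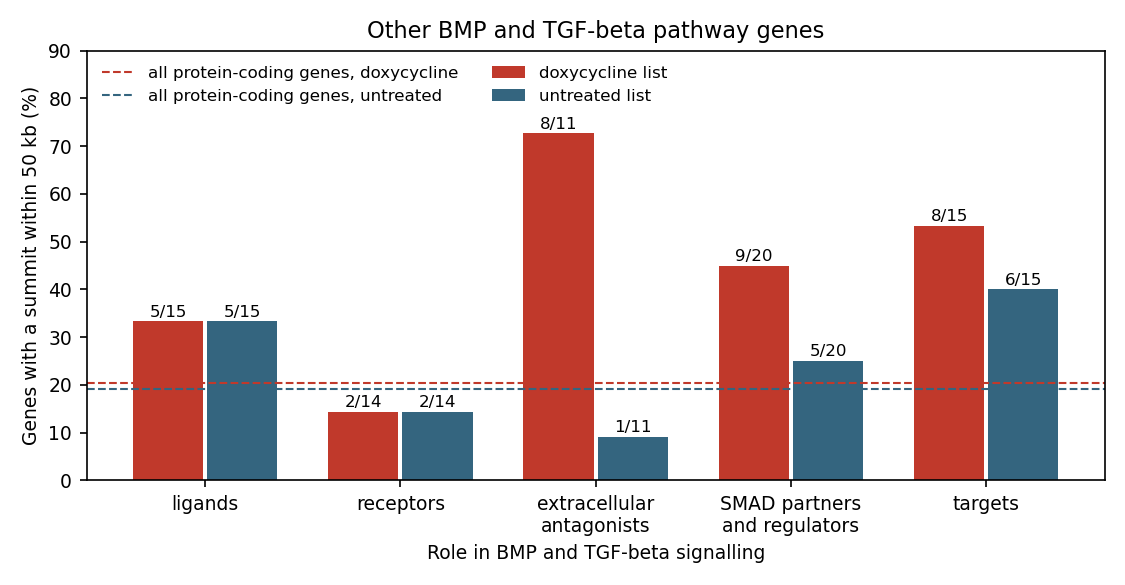
Percent of genes of each role in BMP and TGF-beta signalling with a summit within 50 kb (vertical axis), doxycycline bars left of untreated bars, counts above the bars and dashed lines at the shares over all protein-coding genes (20.3% and 19.1%). Extracellular antagonists stand at 8 of 11 with doxycycline and 1 of 11 without, while ligands and receptors have equal counts in the lists.

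Likeness to the inhibitory SMADs was measured as equal numbers of doxycycline and untreated summits within 50 kb and the nearest −log10 q of the strongest doxycycline peak. With 5 and 0 summits, Smad6 shared its counts with 5 genes. The closest was Mcl1, a survival gene of the BCL2 family (−log10 q 15.8, inside the gene), followed by Stk11, which encodes the kinase LKB1 (13.7, 21.2 kb away), and Cxxc5, a zinc finger gene (11.6, 12.8 kb away). With 1 and 0 summits, Smad7 shared its counts with 2781 genes. Of these 21 had the same −log10 q of 15.4, among them, in alphabetical order, Abcc8, Adam11 and Asb16, so the measure does not single out genes for Smad7.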

How the data were processed

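ChIP-seq peak lists, 1 per condition, were analysed for the doxycycline and untreated pull-downs. MACS2 2.1.1, SAMtools 1.5, Bowtie2 2.3.2 and the mm10 build are named, per the submitters' processing notes. Their settings, the use of the inputs and any pooling of the 2 pull-downs were not given in the sources used here. The fold enrichment at each summit is a ratio the authors deposited, and the −log10 p and −log10 q are also the authors' deposited values.

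Rows sharing an interval were merged, keeping the best summit (3725 doxycycline rows to 3640 peaks, 4428 untreated rows to 4379). Pileups and local expectations were solved from fold and −log10 p, taking fold as (pileup + 1) / (expectation + 1) and p as a Poisson upper tail. In each list 99.8% of peaks fitted a whole pileup to within 0.01 of −log10 p. Depth is known only as these pileups (medians 7 and 5 fragments). Distances run from the summit to the RefSeq gene interval (GRCm38.p6, the assembly of mm10), 0 inside, for 21631 protein-coding genes on the 20 chromosomes of the lists. All 8 members matched, 5 of them with a promoter sequence. Exons were not analysed here.

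No test was made, since there was 1 list per condition. The members, windows and 5 gene lists were chosen with earlier results of these data known. Genes named were all members, the 4 highest −log10 q per list and those with summits in both lists, neighbours nearer to a peak than the member, and the 3 most like Smad6 and Smad7. A gene that this rule names among the extracellular antagonists is counted but not reported here. Chrd, Fst, Lefty1, Lefty2, Bmper, Smurf1, Smurf2, Tgfb2, Bmp2, Tgfbr2, Tgfbr3, Hes1, Med16 and the lncRNA genes were named after their values were seen, and so were the shares of genes of similar length. Alternatives were other thresholds, distances and assignment. The solving of pileups and the distances were checked on simulated data, and the other steps were not. The pileups were simulated with the same formulas, so this checks the solving and not the formulas. Computing used scipy 1.17.1, pandas 2.3.3, numpy 2.4.6 and matplotlib 3.10.9 under Python 3.11.15.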

Additional observations from a re-analysis of the deposited data

How the results depend on the processing

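The 10 alternatives left 49 of 70 recomputed counts within 1.5 times the value reported. That tally includes untreated SMAD counts of 0, which stricter settings cannot raise. Where they stay 0, the difference between the lists only repeats the doxycycline count. With at least 10-fold enrichment, 3 doxycycline peaks remained in the SMAD windows (difference from untreated 3), and 6 and 0 pathway genes had a doxycycline and an untreated summit. With summits within 10 kb there were 6 doxycycline peaks (difference 6) and 19 and 8 pathway genes. Within 100 kb, 3 untreated peaks and 3 SMAD genes near one appeared, and within 200 kb 7 peaks and 5 genes, which took the difference to 5 and the pathway genes to 50 and 41. By nearest gene only, 1 SMAD gene, Smad2, owned an untreated summit. The pathway counts were 16 and 4 with −log10 q of at least 5 and 14 and 8 among the top 1000 peaks, and the untreated one was 9 with at least 6 fragments. Fewer or more peaks pass these settings by construction. No alternative turned the order of the lists by peaks in the SMAD windows. With 0 untreated peaks there, only settings that add peaks could have turned it. Counted by genes, the lists were equal with 200 kb for all members, at 5 SMAD genes each. No paired analysis was possible because the pull-downs have no separate values, and for the same reason no replicate could be left out. The smallest pileups were 5 fragments with doxycycline and 4 without, so a site can miss a list by 1 fragment.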
